A study of Homo sapiens with 9 samples.

Results

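RNA sensors and interferon signalling factors are the proteins that detect foreign or misplaced RNA in a cell and the factors that carry the alarm to interferon-stimulated genes. 9 genes were listed by name, by a rule that holds no measured value, though with earlier results of these data known: the RNA sensors DDX58, IFIH1, DHX58, EIF2AK2 and TLR3 and the signalling factors IRF3, IRF7, IRF9 and STAT2. Of these 9, 8 were among the 16630 genes of the expression table and all 8 passed the filter on low values, and IRF7 was not analysed here. Expression was compared in H1650, an established human non-small cell lung cancer line, on day 3 after lipid transfection (Lipofectamine RNAiMAX) of siRNA at 20 nM, with 3 libraries a group. Cells of the siMENA11a group were given 3 mixed siRNAs, each matching 21 nucleotides of exon 11a of ENAH, the gene for the actin regulator hMENA. The siMENA group received a commercial pool (siGENOME SMARTpool) against ENAH, named hMENA(t) in the labels. The control group received a non-targeting pool of another product line (ON-TARGETplus). Every group therefore received RNA duplexes and lipid, and no untransfected library was among them. The siRNA sequences and product lines differed between groups, so the silenced target and the siRNA preparation cannot be told apart.

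Double-stranded RNA in the cytosol is bound by the helicases RIG-I (gene DDX58) and MDA5 (IFIH1), which signal through the mitochondrial adaptor MAVS, while TLR3 senses it in endosomes and EIF2AK2 encodes PKR, a kinase that halts translation when bound to it. The kinases downstream of MAVS and TLR3 phosphorylate IRF3, which switches on interferon genes. Secreted interferon then acts through its receptors and the JAK kinases on the complex ISGF3, which includes STAT2 and IRF9 and raises a large set of interferon-stimulated genes that includes most of the sensors themselves.

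ISGF3 binds the interferon-stimulated response element (ISRE), and other STAT dimers bind the gamma-activated site (GAS). Promoter windows of 250 bases before to 50 bases after the gene start, from RefSeq on GRCh38.p14, matched 6 of the 9 genes. DDX58 matched under the name RIGI, and DHX58, IRF3 and IRF7 had no entry. The 4 windows with a match to either motif are shown, since these motifs are where IRF9 and STAT2, described below, and other STAT factors are known to bind. They lie at chr2:162318635-162318934 (minus strand, IFIH1), chr2:37156931-37157230 (minus strand, EIF2AK2), chr4:186068906-186069205 (plus strand, TLR3) and chr14:24161015-24161314 (plus strand, IRF9). Each is written 5′ to 3′ on the strand of its gene, with matches on either strand in capitals.
IFIH1: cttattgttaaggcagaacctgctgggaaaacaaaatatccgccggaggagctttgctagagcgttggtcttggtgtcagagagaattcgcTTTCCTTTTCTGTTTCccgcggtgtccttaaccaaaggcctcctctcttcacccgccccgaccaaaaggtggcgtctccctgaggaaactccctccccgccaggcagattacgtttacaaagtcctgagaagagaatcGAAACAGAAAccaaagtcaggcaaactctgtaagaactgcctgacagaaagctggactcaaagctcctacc
EIF2AK2: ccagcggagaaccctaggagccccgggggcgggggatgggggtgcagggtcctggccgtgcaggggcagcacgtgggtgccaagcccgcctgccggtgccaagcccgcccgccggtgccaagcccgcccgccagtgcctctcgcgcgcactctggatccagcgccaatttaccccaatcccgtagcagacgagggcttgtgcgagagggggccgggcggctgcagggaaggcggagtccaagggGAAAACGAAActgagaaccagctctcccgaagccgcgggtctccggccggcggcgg
TLR3: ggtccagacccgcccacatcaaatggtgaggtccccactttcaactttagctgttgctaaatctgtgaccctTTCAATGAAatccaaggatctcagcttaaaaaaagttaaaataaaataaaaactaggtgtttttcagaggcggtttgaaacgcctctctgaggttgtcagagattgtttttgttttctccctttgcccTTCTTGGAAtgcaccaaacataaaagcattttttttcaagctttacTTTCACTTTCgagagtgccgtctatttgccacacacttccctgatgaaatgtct
IRF9: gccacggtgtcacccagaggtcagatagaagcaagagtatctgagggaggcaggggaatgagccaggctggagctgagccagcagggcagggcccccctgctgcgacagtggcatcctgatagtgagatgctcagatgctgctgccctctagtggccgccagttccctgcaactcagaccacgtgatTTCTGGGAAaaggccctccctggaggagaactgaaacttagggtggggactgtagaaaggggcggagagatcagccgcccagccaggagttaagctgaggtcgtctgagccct
The ISRE core was searched as TTTC, any 2 bases and TTTC again, and the GAS as TTCNNNGAA, on both strands, and no ISRE match overlapped a GAS match in these windows. IFIH1 held 3 ISRE cores, of which the matches at -159 to -150 and -153 to -144 from the start overlap each other and the match at -21 to -12 reads on the other strand. EIF2AK2 held 1 ISRE core, at -6 to 4 on the other strand, and TLR3 held 1, at -4 to 6. TLR3 also held GAS matches at -178 to -170 and at -50 to -42, and IRF9 held 1 at -63 to -55. Neither motif was found in the windows of RIGI (chr9:32526147-32526446) and STAT2 (chr12:56360058-56360357). Only these exact strings were searched, so an element with another spacing or a mismatch would not be found. Over all 35116 RefSeq promoter windows, 3.57% held the ISRE core and 7.66% the GAS.

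The table gave FPKM (fragments per kilobase of transcript, scaled to the mapped fragments of the library), so absolute depth is unknown, and the most common ratios between low values put the other 8 libraries at 1.15 to 1.59 times the depth of control replicate 1. ENAH had 9.98, 11.0 and 10.3 FPKM in the siMENA11a libraries, 4.43, 5.79 and 5.57 in the siMENA libraries and 26.1, 30.04 and 26.1 in the control libraries, which was 38.1% of the control mean with siMENA11a and 19.2% with siMENA. Values were given per gene rather than per transcript, and exon 11a itself was not measured. Of 8 epithelial markers 7 were in the table, with summed levels of 4016.5 to 4514 FPKM in siMENA11a, 4766 to 4970 in siMENA and 4887 to 5211 in control libraries. CDH1 (E-cadherin), KRT8 and KRT18 fell with siMENA11a against control (-0.42, -0.35 and -0.40 in log2 of FPKM + 1, limma adjusted p = 0.00196, 0.029 and 0.0102) and KRT7 fell with siMENA (-0.41, 0.0059). With siMENA11a the other 4 markers did not pass, and 3 of the 7 had a positive log2 fold change. Of the 7, 1 was higher with siMENA11a at an unadjusted p under 0.05 in limma. With siMENA the other 6 did not pass. The part of these marker changes in the results was not tested. Of 9 leukocyte markers 3 were in the table, at 15.1 to 20.2, 13.7 to 16.7 and 14.4 to 19.3 FPKM in all in the same 3 groups, and of 10 fibroblast and endothelial markers 7 were, at 0.856 to 3.05, 1.08 to 4.29 and 1.02 to 2.91 FPKM; the other markers of these lists were not analysed here. In these bulk samples fewer cells expressing a gene and less RNA per cell cannot be told apart.

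In control cells the levels, which FPKM makes comparable between genes of different length, spanned means of 2.703 to 48.5 FPKM. IRF3 was highest, with a mean of 48.5 FPKM, followed by STAT2 (28.3), DDX58 (21.0), EIF2AK2 (18.4), IRF9 (15.1), IFIH1 (10.2), DHX58 (3.11) and TLR3 (2.703). The libraries of neighbours in this order did not overlap, except for DHX58 and TLR3. H1650 cells thus held RNA for the cytosolic sensors RIG-I, MDA5 and PKR at 10.2 to 21.0 FPKM. The helicase gene DHX58 and the gene of the endosomal sensor TLR3 were both at the low end of the 8 genes.

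Fold changes are given as log2 of FPKM + 1, which understates the change of low genes, with their standard error (SE), and adjusted p-values come from limma with Benjamini-Hochberg adjustment over the 13273 genes tested. With siMENA11a against control, 4 of the 8 genes rose (DDX58, IFIH1, EIF2AK2 and IRF9) and none fell at an adjusted p under 0.05. Over all genes 8.16% rose, 11.3% fell and 19.5% changed in either direction. With siMENA against control, 5 of the 8 rose (the same 4 and IRF3) and none fell, against 10.3% of all genes that rose, 8.24% that fell and 18.6% that changed. This fit had no term for the replicate number. With the replicate number as a block, 7 of the 8 rose with siMENA and 6 with siMENA11a, against 1740 and 1481 of all 13273 genes. The median log2 fold change of the 8 was 0.47 with siMENA11a and 0.41 with siMENA, against -0.01 and 0.04 over all genes tested. At an unadjusted p under 0.05 in limma 6 of the 8 were higher with siMENA11a and 7 with siMENA, and 0 were lower with either, where 14.7% and 19.7% of all genes were higher and 19% and 13.9% lower. The comparisons share their control libraries. All libraries lay above all control libraries for 5 of the 8 genes with siMENA11a and for 7 of the 8 with siMENA, and for none were all below. Over all genes this held for 16.6% above and 20.2% below with siMENA11a, and for 23.8% above and 16.3% below with siMENA. An exact permutation test of 3 libraries against 3 cannot give a two-sided p under 0.1, the value that every such separation received.

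**Figure D1:**
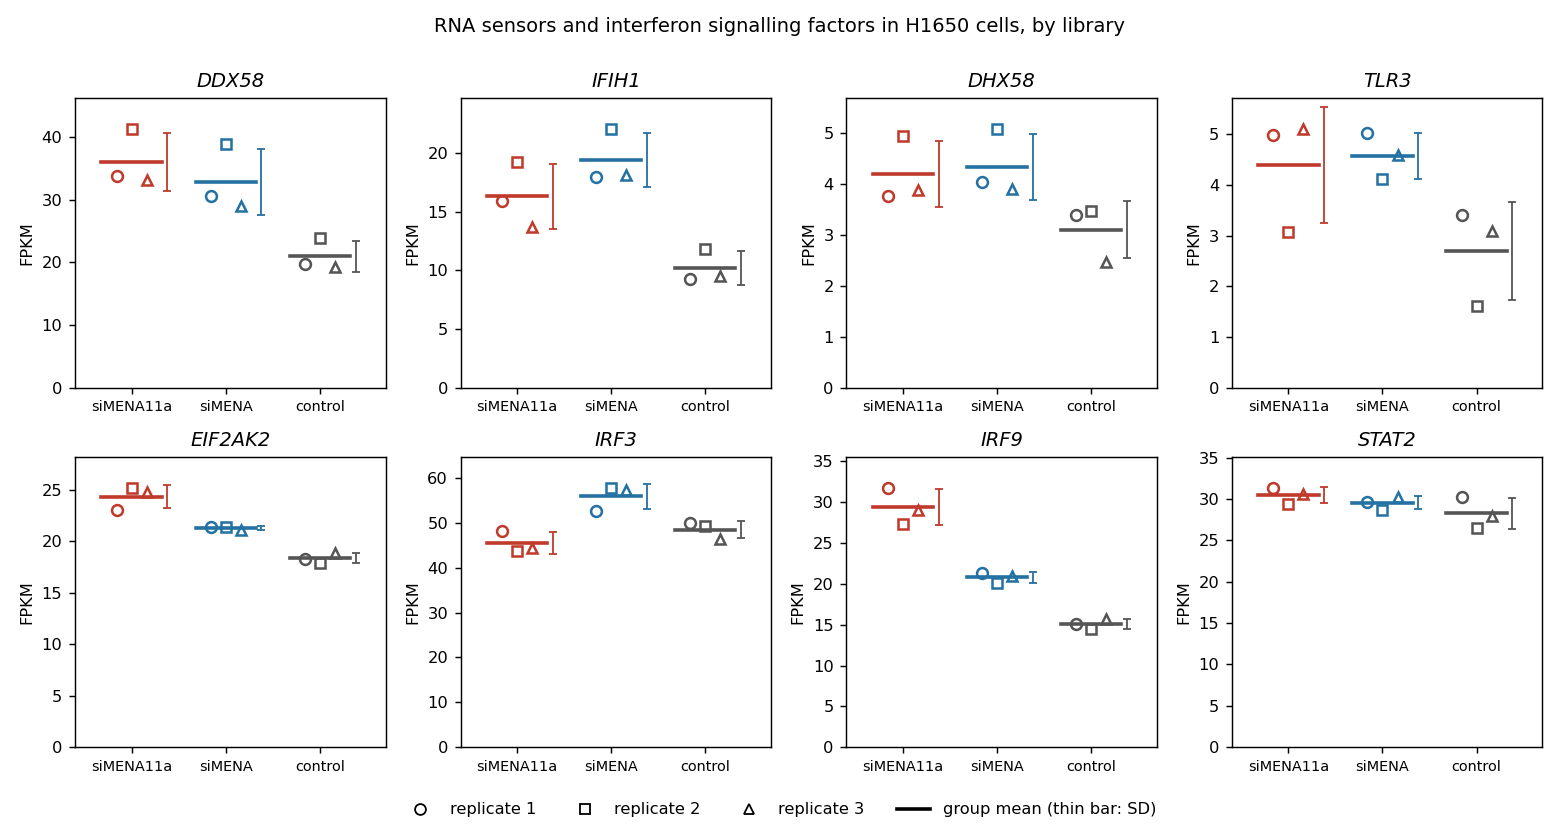
FPKM of the 8 genes in each of the 9 libraries, with siMENA11a left, siMENA in the middle and control right; symbols mark the replicate number, thick lines the group mean and thin bars the SD (n = 3). DDX58, IFIH1, EIF2AK2 and IRF9 have every library of both siRNA groups above every control library, whereas the STAT2 groups overlap, with all libraries at 26.5 to 31.3 FPKM.

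DDX58, the sensor of short duplexes and of RNA with a triphosphate end, had 33.8, 41.4 and 33.1 FPKM in the siMENA11a libraries, 30.6, 38.9 and 29.1 in the siMENA libraries and 19.8, 23.9 and 19.2 in the control libraries. The highest library of each group was replicate 2, and both siRNA groups stood clear of the control group while overlapping each other. Against control, DDX58 rose by 0.75 ± 0.12 with siMENA11a (SE, limma adjusted p = 0.00325), a mean of 36.1 ± 4.59 against 21.0 ± 2.52 FPKM (SD, n = 3), and by 0.62 ± 0.12 with siMENA (limma adjusted p = 0.00843), a mean of 32.9 ± 5.27 FPKM. Between the siRNAs the difference of siMENA11a over siMENA was 0.13 with a 95% interval of -0.14 to 0.41 (limma adjusted p = 0.429).

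IFIH1, the sensor of long duplexes, had 15.9, 19.3 and 13.7 FPKM with siMENA11a, 18.0, 22.1 and 18.2 with siMENA and 9.25, 11.9 and 9.52 in control. Every library of both siRNA groups was above every control library. It rose by 0.62 ± 0.13 with siMENA11a (SE, limma adjusted p = 0.00985), 1.60 times the control mean, and by 0.87 ± 0.13 with siMENA (limma adjusted p = 0.00215), 1.90 times the control mean. IFIH1 was the gene of the 8 with the largest rise under siMENA. The siMENA11a mean of 16.3 FPKM was below the siMENA mean of 19.4 FPKM, but siMENA11a replicate 2 lay above 2 of the siMENA libraries and the difference did not pass (-0.24, 95% interval -0.54 to 0.05, limma adjusted p = 0.170). It passed without siMENA11a replicate 2, the highest of its group (-0.36, limma adjusted p = 0.0438), within a range of 0.0133 to 0.465 over the alternatives.

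DHX58 encodes LGP2, a helicase without signalling domains of its own that modulates RIG-I and MDA5. It was low, at 3.78, 4.95 and 3.89 FPKM with siMENA11a, 4.05, 5.09 and 3.90 with siMENA and 3.39, 3.47 and 2.46 in control. All siRNA libraries lay above all control libraries, the closest being siMENA11a replicate 1 and control replicate 2. The differences of 0.34 ± 0.13 with siMENA11a (SE, limma adjusted p = 0.0946) and 0.38 ± 0.13 with siMENA (limma adjusted p = 0.0695) did not pass. A fit that blocked on replicate number put the siMENA difference past the threshold (limma adjusted p = 0.0142). It also passed without siMENA11a replicate 2, which enters the shared estimate of spread (0.0484), and the range over the alternatives was 0.0142 to 0.219.

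TLR3, the endosomal sensor, had 4.98, 3.08 and 5.11 FPKM with siMENA11a, 5.02, 4.12 and 4.58 with siMENA and 3.42, 1.60 and 3.09 in control. The siMENA libraries were all above the control libraries, whereas siMENA11a replicate 2 lay below 2 of the control libraries. Its mean was 1.62 times control with siMENA11a and 1.69 times with siMENA, but the spread was the largest of the 8 genes and neither difference passed (0.55 ± 0.21 with siMENA11a, SE, limma adjusted p = 0.0885, and 0.62 ± 0.21 with siMENA, 0.0617). Blocking on replicate number put the siMENA difference past the threshold (limma adjusted p = 0.00564). Without siMENA11a replicate 2 both passed, at limma adjusted p = 0.0302 for siMENA11a and 0.0333 for siMENA, within ranges of 0.00825 to 0.238 and 0.00564 to 0.169 over the alternatives.

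EIF2AK2 encodes PKR, which phosphorylates the translation factor eIF2α when it binds duplex RNA. It had 23.1, 25.1 and 24.8 FPKM with siMENA11a, 21.4, 21.4 and 21.1 with siMENA and 18.3, 17.9 and 18.9 in control. The 3 groups did not overlap. EIF2AK2 rose by 0.39 ± 0.05 with siMENA11a against control (SE, limma adjusted p = 0.00112), 1.32 times the control mean, and by 0.20 ± 0.05 with siMENA (limma adjusted p = 0.0219), 1.16 times. It was also higher with siMENA11a than with siMENA, by 0.18 ± 0.05 (limma adjusted p = 0.0197). The siMENA call was lost without siMENA replicate 1 (limma adjusted p = 0.0718), siMENA replicate 2 (0.0675), control replicate 1 (0.0643) or control replicate 2 (0.0682). The call between the siRNAs was lost without siMENA replicate 1 (0.0518), siMENA replicate 2 (0.0522), siMENA11a replicate 2 (0.0505) or siMENA11a replicate 3 (0.0524). Over all alternatives these p-values ran from 0.0191 to 0.115 and from 0.00664 to 0.107.

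IRF3, the factor that the kinases downstream of RIG-I, MDA5 and TLR3 activate, is regulated mainly by phosphorylation rather than by its level. It had 48.3, 43.7 and 44.5 FPKM with siMENA11a, 52.7, 57.7 and 57.4 with siMENA and 49.9, 49.2 and 46.3 in control. The siMENA libraries were above all others, and the siMENA11a libraries overlapped the control. IRF3 rose by 0.20 ± 0.06 with siMENA (SE, limma adjusted p = 0.0413), 1.15 times the control mean, and did not pass with siMENA11a (-0.09, 95% interval -0.22 to 0.04, limma adjusted p = 0.316). It was lower with siMENA11a than with siMENA, with a difference of -0.29 ± 0.06 (SE, limma adjusted p = 0.00402). The siMENA call was lost without siMENA replicate 2 (limma adjusted p = 0.128), siMENA replicate 3 (0.106), control replicate 1 (0.0684), control replicate 2 (0.0752) or control replicate 3 (0.146), and under median-ratio scaling (0.0825), quantile normalization (0.0633) or no mean-variance trend (0.0628), within a range of 0.0364 to 0.146. In the GENCODE v29 annotation of GRCh38, 734 of the 3794 exon bases of IRF3 (19.3%) are shared with BCL2L12 on the opposite strand. BCL2L12 averaged 15.6 ± 3.89 FPKM with siMENA11a, 26.4 ± 1.99 with siMENA and 19.3 ± 1.59 in control (SD, n = 3), and was lower with siMENA11a than with siMENA (-0.75, limma adjusted p = 0.00401). Whether the counting used strand is not given in the sources used here, and the part of BCL2L12 reads in the IRF3 values was not tested.

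IRF9, the DNA-binding subunit of ISGF3, had 31.7, 27.3 and 29.1 FPKM with siMENA11a, 21.3, 20.1 and 21.0 with siMENA and 15.1, 14.5 and 15.7 in control. The 3 groups stood apart with no overlap. IRF9 rose by 0.91 ± 0.06 with siMENA11a (SE, limma adjusted p = 6.06e-05), 1.94 times the control mean, and by 0.44 ± 0.06 with siMENA (limma adjusted p = 0.00175), 1.38 times. The level with siMENA11a was 1.41 times that with siMENA (0.48 ± 0.06, limma adjusted p = 0.00039). It was the gene of the 8 with the largest rise under siMENA11a. In GENCODE v29, 1838 of its 3794 exon bases (48.4%) are shared with another protein-coding gene model on the same strand, so how the counting assigned those reads is uncertain.

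STAT2, another subunit of ISGF3, had 31.3, 29.4 and 30.6 FPKM with siMENA11a, 29.7, 28.7 and 30.3 with siMENA and 30.3, 26.5 and 27.9 in control. Control replicate 1 lay within the range of the siRNA libraries, and the groups overlapped. The differences from control were 0.11 with siMENA11a (95% interval -0.02 to 0.24, limma adjusted p = 0.234) and 0.06 with siMENA (-0.07 to 0.19, limma adjusted p = 0.479). The upper bounds correspond to ratios of 1.18 and 1.14. STAT2 is itself an interferon-stimulated gene in many cells, and it was the gene of the 8 with the smallest difference under siMENA.

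Between the siRNAs, 2 of the 8 genes were higher with siMENA11a than with siMENA (EIF2AK2 and IRF9), 1 was lower (IRF3) and 5 did not pass. Over all genes 14.4% were higher, 22.2% lower and 36.6% differed in either direction. The same 3 genes had no overlap between the groups, 2 above and 1 below, where 19.2% of all genes were above and 28.6% below. The median log2 difference of the 8 genes was 0.00, against -0.05 over all genes. The helicases and TLR3 thus did not differ past the threshold between siRNAs to exon 11a and to ENAH, with 95% intervals of -0.14 to 0.41 for DDX58, -0.54 to 0.05 for IFIH1, -0.33 to 0.25 for DHX58 and -0.53 to 0.39 for TLR3. The share of lower genes among all called genes depended on scaling. With siMENA11a against siMENA it was 60.6%, and 50.1% with median-ratio scaling or 50.9% with quantile normalization. With siMENA against control it was 44.4%, and 56.2% or 52.0% under the same alternatives.

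**Figure D2:**
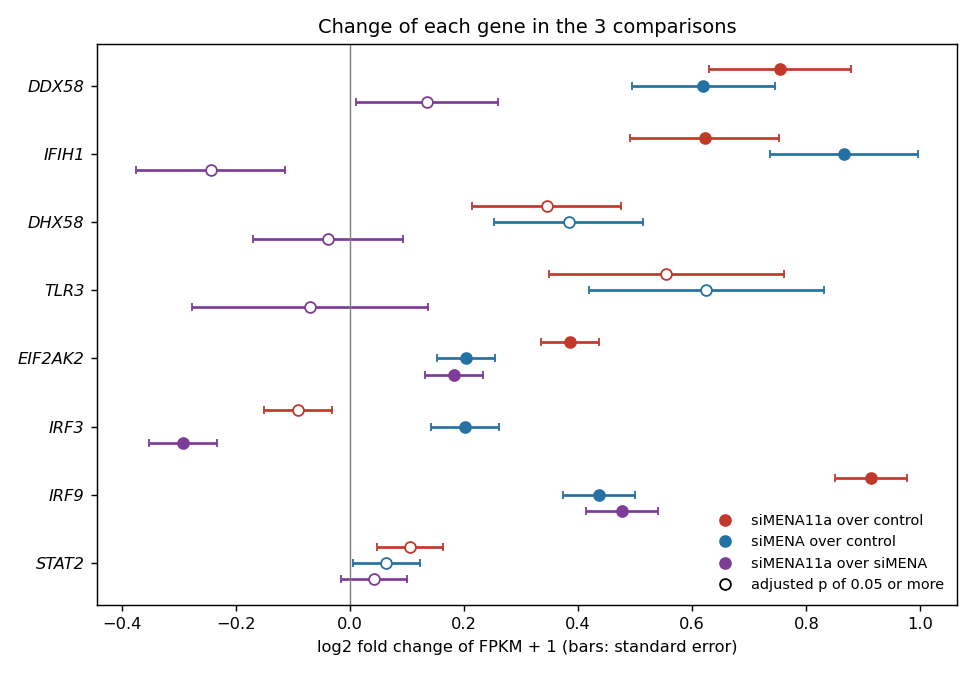
log2 fold change of FPKM + 1 for the 8 genes in the 3 comparisons, siMENA11a over control (top of each trio), siMENA over control and siMENA11a over siMENA; bars are standard errors from limma and open circles mark an adjusted p of 0.05 or more. The largest points are 0.91 for IRF9 with siMENA11a and 0.87 for IFIH1 with siMENA, both over control.

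Of the 5 sensor genes, 4 deviated in 1 direction in replicate 2 of every group. DDX58, IFIH1 and DHX58 were above the mean of their own group in replicate 2 of all 3 groups, whereas TLR3 was below in all 3. The deviations in replicate 2 were 0.20, 0.25 and 0.18 log2 units for DDX58 in siMENA11a, siMENA and control, and 0.24, 0.18 and 0.21 for IFIH1. They were -0.38, -0.12 and -0.47 for TLR3. The fifth sensor gene, EIF2AK2, deviated by 0.05, 0.01 and -0.03 in the same order, with no common sign. IRF9 and STAT2 were also lower in replicate 2 of each group, by at most 0.10 below their group mean. Without replicate 2 of any group, an alternative chosen after seeing the data, 5 genes passed with siMENA11a against control, 4 with siMENA against control and 3 between the siRNAs. Of all genes 12.4%, 12.2% and 30.7% passed in these comparisons. TLR3 then passed with siMENA11a (limma adjusted p = 0.0152) and with siMENA (0.0239), while EIF2AK2 (0.115) and IRF3 (0.141) no longer passed with siMENA. Between the siRNAs IFIH1 then passed (0.0436) and EIF2AK2 did not (0.107).

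**Figure D3:**
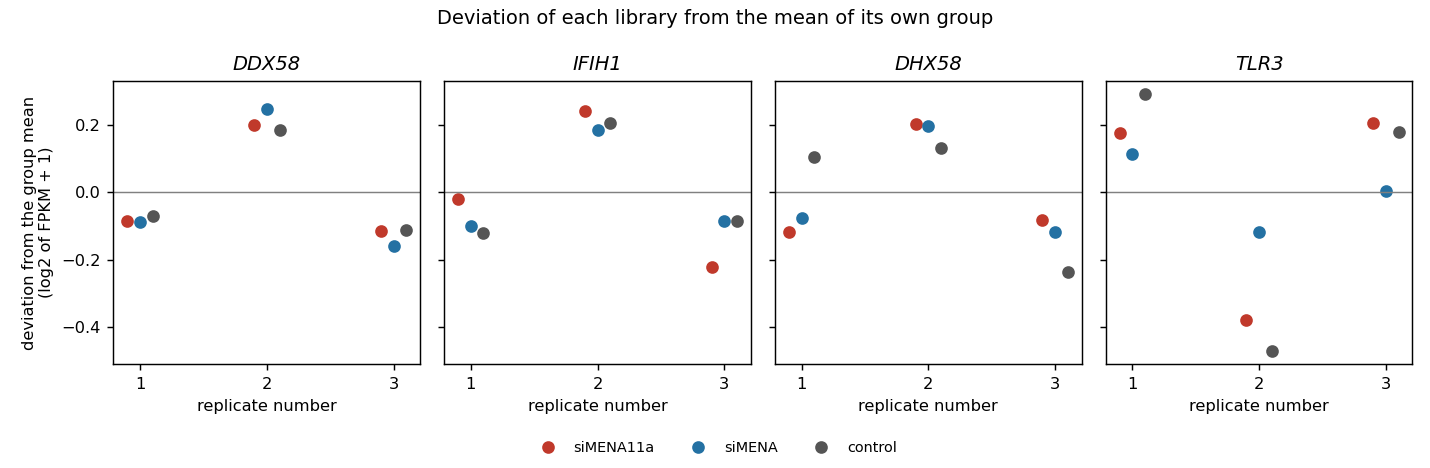
Deviation of each library from the mean of its own group, in log2 of FPKM + 1, by replicate number, for 4 of the 5 sensor genes, DDX58, IFIH1, DHX58 and TLR3; colours mark siMENA11a, siMENA and control. In replicate 2 the 3 helicase genes are above the line in every group and TLR3 is below it, down to -0.47 in control.

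Over the 9 libraries, which share their group structure and their replicate numbers, the helicase profiles were alike, with Pearson r of 0.91 between DDX58 and IFIH1 and 0.90 between DDX58 and DHX58. EIF2AK2 and IRF9, which stepped up in the same order of groups, had r = 0.95. The gene with the profile most like DDX58 among the 13265 others was ISG15, a ubiquitin-like modifier (r = 0.99). It was NT5C3 for IFIH1 (0.99), HS3ST1 for DHX58 (0.96), CCBL2 for EIF2AK2 (0.98), CYFIP1 for TLR3 (0.98), SYDE1 for IRF3 (0.99) and STAU2 for STAT2 (0.96). The mean profile of the 8 genes was most like PARP14, OAS1 and IFI35 among the pathway lists (0.97, 0.96 and 0.96) and CDS2, HDAC9 and LACTB2 outside them (0.98, 0.98 and 0.97). Of the 8 genes, each of which is itself part of that mean profile, IRF3 had the weakest correlation with it (0.23), followed by STAT2 (0.67).

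Of 17 adaptors and kinases that carry the signal of the sensors, 2 rose and 1 fell with siMENA11a against control, and 2 rose and 3 fell with siMENA. Their median log2 fold changes were 0.06 and 0.01, against -0.01 and 0.04 over all genes, and 3 were higher and 2 lower with siMENA11a than with siMENA. Against control, 8.16% of all genes rose and 11.3% fell with siMENA11a, and 10.3% rose and 8.24% fell with siMENA. Between the siRNAs 14.4% of all genes were higher with siMENA11a and 22.2% lower. These shares apply to each list below as well. MAVS, the adaptor of RIG-I and MDA5, had 17.1 ± 0.590 FPKM with siMENA11a, 11.4 ± 0.605 with siMENA and 16.4 ± 0.664 in control (SD, n = 3). It fell with siMENA against control (-0.49, limma adjusted p = 0.00068), was higher with siMENA11a than with siMENA (0.54, 0.00013) and did not pass with siMENA11a against control (0.05, 0.562). TANK, a scaffold of the kinases TBK1 and IKBKE, rose with siMENA11a (46.0 FPKM, 0.35, limma adjusted p = 0.00325) and fell with siMENA (28.2 FPKM, -0.34, 0.00399) against control (35.9 FPKM). AZI2, another such scaffold, fell with siMENA (-0.27, limma adjusted p = 0.00916). TRIM25, the ubiquitin ligase that activates RIG-I, rose with siMENA (21.1 ± 0.618 against 15.2 ± 0.741 FPKM in control, 0.45, 0.00644). MYD88 rose with siMENA11a (0.63, limma adjusted p = 0.0417), a call kept only without siMENA replicate 3 or siMENA11a replicate 3 among the 9 libraries left out in turn. TBKBP1 fell with siMENA11a (-0.33, limma adjusted p = 0.0239), a call lost without siMENA11a replicates 1 or 3 or control replicates 1 or 2, and rose with siMENA (0.33, 0.0238), a call lost without any siMENA replicate or control replicates 2 or 3. The highest p in the alternatives was 0.204 for MYD88 and 0.0963 and 0.0925 for TBKBP1. Between the siRNAs TANK (0.68, limma adjusted p = 3.37e-05) and AZI2 (0.32, 0.00198) were higher with siMENA11a and TBKBP1 was lower (-0.65, 0.00033). The kinase TBK1 and the adaptors TRAF3 and TICAM1 did not pass in any comparison.

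**Figure D4:**
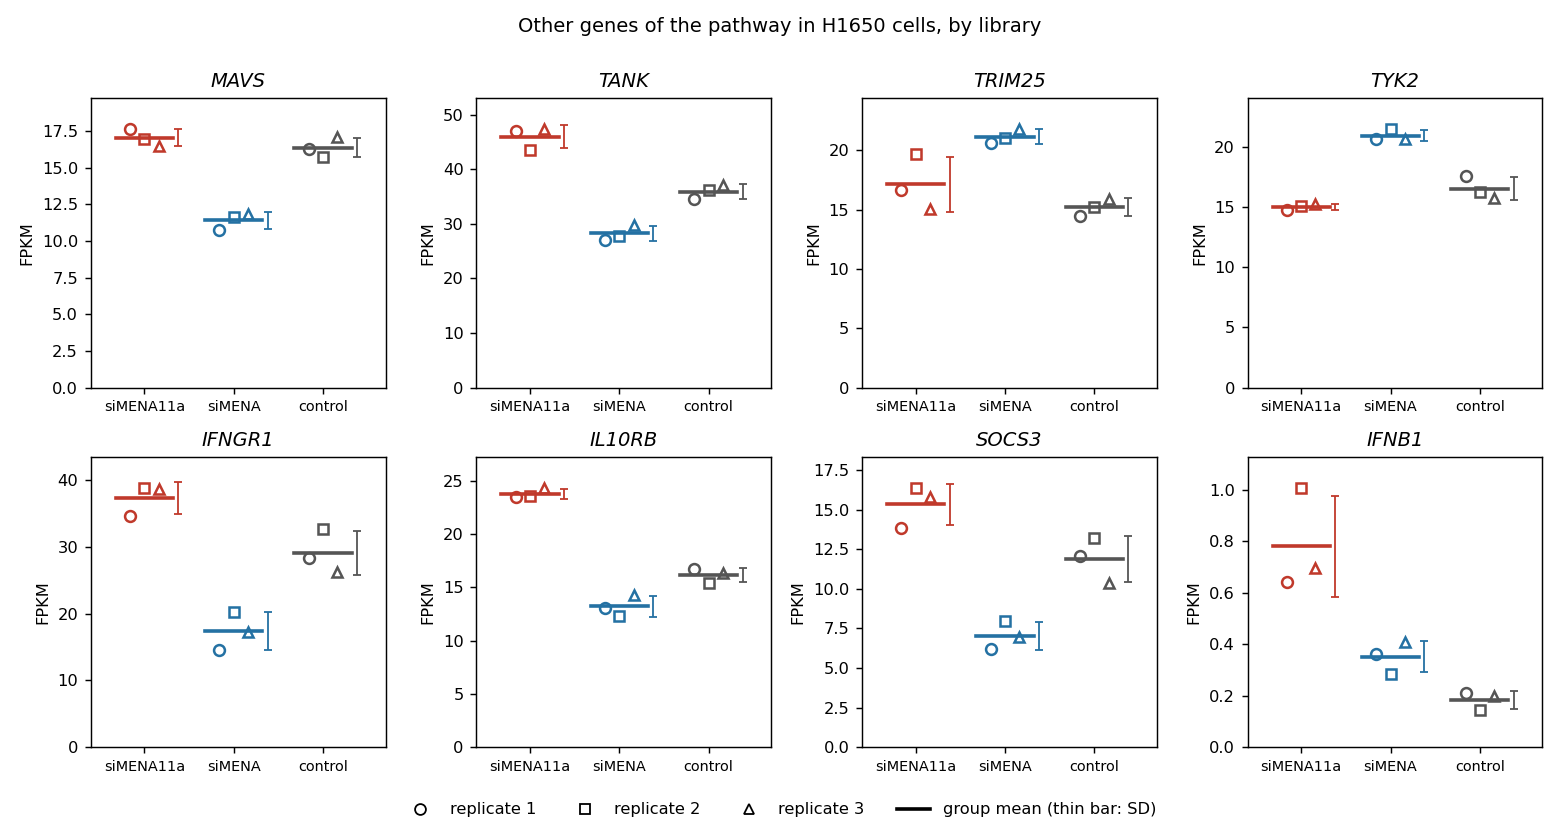
FPKM of 8 other genes of the pathway in each of the 9 libraries, with siMENA11a left, siMENA in the middle and control right; symbols mark the replicate number, thick lines the group mean and thin bars the SD (n = 3). MAVS is lower with siMENA than in the other groups (mean 11.4 FPKM), and TRIM25 has means of 17.1 FPKM with siMENA11a, 21.1 with siMENA and 15.2 in control.

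Among 14 tested inhibitors of sensing and of interferon signalling, 3 rose and 1 fell with siMENA11a, and 5 rose and 2 fell with siMENA against control, with median log2 fold changes of 0.06 and 0.11, and 1 was higher and 3 lower with siMENA11a than with siMENA, where 14.4% of all genes were higher and 22.2% lower. USP18, which removes ISG15 and blocks the interferon receptor, rose with siMENA (12.6 ± 1.45 against 7.16 ± 0.709 FPKM in control, SD, n = 3, 0.73, limma adjusted p = 0.00311) and was lower with siMENA11a than with siMENA (-0.59, 0.00372). SOCS3, a feedback inhibitor of JAK kinases, had 15.3 ± 1.30 FPKM with siMENA11a, 7.03 ± 0.874 with siMENA and 11.9 ± 1.44 in control. It fell with siMENA (-0.68, limma adjusted p = 0.00255) and was higher with siMENA11a than with siMENA (1.03, 8.75e-05). TRIM21 rose with siMENA (0.53, limma adjusted p = 0.00158), and SOCS1 was lower with siMENA11a than with siMENA (-0.71, 0.0032). CYLD, a deubiquitinase, fell with siMENA11a (-0.26, limma adjusted p = 0.0126). CYLD also fell with siMENA (limma adjusted p = 0.0395, up to 0.106), a call kept only without siMENA11a replicates 2 or 3. Between the siRNAs it did not pass (limma adjusted p = 0.428). SOCS1 rose with siMENA (0.54, limma adjusted p = 0.0237, up to 0.0879), a call lost without siMENA replicates 1 or 2 or control replicate 3. With siMENA11a against control, SOCS3 (0.35, limma adjusted p = 0.0449, up to 0.152) rose, a call lost without siMENA replicate 3, siMENA11a replicates 2 or 3 or control replicates 1 or 3. TRIM21 (0.26, limma adjusted p = 0.0362, up to 0.138) rose too, a call kept only without siMENA replicate 3, siMENA11a replicate 2 or control replicate 1, and PTPN2 (0.15, 0.0465, up to 0.132) rose, a call kept only without siMENA11a replicate 2. Between the siRNAs TRIM21 was lower with siMENA11a (-0.27, limma adjusted p = 0.0187, up to 0.105), a call lost without siMENA replicates 1 or 2 or siMENA11a replicate 1.

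Among 16 other proteins that bind or act on duplex RNA or DNA, 8 rose and 1 fell with siMENA11a, and 8 rose and none fell with siMENA against control, with median log2 fold changes of 0.23 and 0.26. At an unadjusted p under 0.05 in limma 1 of them was lower with siMENA. With siMENA11a 3 were higher and 5 lower than with siMENA, where 14.4% of all genes were higher and 22.2% lower. OAS1, an oligoadenylate synthetase activated by duplex RNA, had 13.4 ± 0.423 FPKM with siMENA11a, 13.9 ± 1.63 with siMENA and 7.25 ± 0.722 in control (SD, n = 3). It rose by 0.81 with siMENA11a and by 0.85 with siMENA (limma adjusted p = 0.000485 and 0.000312). OAS2 rose with siMENA (0.87, limma adjusted p = 0.00535) and was lower with siMENA11a than with siMENA (-0.67, 0.00879). OASL, an inactive relative of the synthetases that binds RIG-I, rose with siMENA (1.14, limma adjusted p = 0.00937) and with siMENA11a (0.96, 0.0189, up to 0.07), the second call being lost without control replicates 1 or 3. ZC3HAV1, the antiviral protein ZAP, rose with siMENA11a (0.55, limma adjusted p = 0.0318, up to 0.0954), a call lost without siMENA11a replicate 2 or control replicates 1 or 3, and with siMENA (0.59, 0.0247, up to 0.0844), a call lost without siMENA replicates 1 or 2 or control replicates 1 or 3. DDX60, a helicase linked to RIG-I signalling, rose with siMENA11a (0.57, limma adjusted p = 0.00141), and ADAR, the editor of duplex RNA, rose with siMENA11a (0.27, 0.00882) and with siMENA (0.39, 0.00165). PRKRA and TARBP2, partners of PKR and Dicer that bind duplex RNA, were lower with siMENA11a than with siMENA (-0.41 and -0.40, limma adjusted p = 0.00252 and 0.00199). Of the other eIF2α kinases and their partners, none of 6 passed with siMENA11a against control in limma (1 higher and 0 lower at an unadjusted p under 0.05), and EIF2AK4 (GCN2) rose with siMENA (0.32, adjusted p = 0.00755). EIF2AK4 was lower with siMENA11a than with siMENA (-0.28, limma adjusted p = 0.0067), and PPP1R15A, a phosphatase subunit that reverses the block, was higher (0.28, 0.013, up to 0.053), a call lost without siMENA11a replicate 1. EIF2S1, which encodes eIF2α, was lower with siMENA11a than with siMENA (-0.20, limma adjusted p = 0.0414, up to 0.124), a call kept only without control replicates 1 or 2.

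Of 15 receptor, JAK and STAT genes and other interferon regulatory factors tested, 5 rose and none fell with siMENA11a, and 5 rose and 2 fell with siMENA against control, with median log2 fold changes of 0.17 and 0.07. At an unadjusted p under 0.05 in limma 2 of them were lower with siMENA11a. With siMENA11a 4 were higher and 1 lower than with siMENA, where 14.4% of all genes were higher and 22.2% lower. The receptor chain IFNGR1 fell with siMENA (17.4 ± 2.86 against 29.1 ± 3.24 FPKM in control, -0.72, limma adjusted p = 0.0029) and was higher with siMENA11a than with siMENA (1.07, 0.000107). IL10RB, a chain of the type III interferon receptor, rose with siMENA11a (23.8 ± 0.457 against 16.2 ± 0.681 FPKM, 0.53, 0.00064). With siMENA it fell, at 13.0, 12.3 and 14.3 FPKM against 16.8, 15.4 and 16.3 in control (limma adjusted p = 0.0145, up to 0.0563). That call was lost without siMENA replicates 1 or 2 or control replicates 1 or 3. The kinase TYK2 rose with siMENA (0.33, limma adjusted p = 0.00371) and was lower with siMENA11a than with siMENA (-0.45, 0.00023). IRF1 rose with siMENA (0.35, limma adjusted p = 0.00946), and with siMENA11a (0.26, 0.034, up to 0.114), a call lost without siMENA11a replicates 1 or 3 or control replicates 2 or 3. IFNAR1, a chain of the type I receptor, was higher with siMENA11a than with siMENA (0.49, limma adjusted p = 0.0054), as was IL10RB (0.80, 2.52e-05). Against control IFNAR1 rose with siMENA11a (0.36, limma adjusted p = 0.0393, up to 0.125), a call kept only without siMENA replicates 1 or 3 or siMENA11a replicate 3.

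Interferon genes themselves were low. Of 25 interferon names 6 were in the table and 2 passed the filter, IFNE (0.517 to 1.86 FPKM over the 9 libraries) and IL29 (interferon lambda, 1.06 to 4.26 FPKM), and neither passed the test in any limma comparison. At an unadjusted p under 0.05, 1 of the 2 was higher with siMENA11a and 1 with siMENA against control. The ligand genes are named here after their values were seen. IFNB1, interferon beta, was under the filter of 0.5 FPKM, with 0.641, 1.01 and 0.694 FPKM in siMENA11a libraries, 0.363, 0.286 and 0.407 in siMENA libraries and 0.210, 0.145 and 0.200 in control libraries. The 3 groups did not overlap, and the siMENA11a mean was 4.21 times and the siMENA mean 1.90 times the control mean. In the limma fit without a filter the difference from control passed for siMENA11a (0.58 ± 0.08, SE, adjusted p = 0.002) and not for siMENA (0.19 ± 0.08, adjusted p = 0.139), and siMENA11a was higher than siMENA (0.39 ± 0.08, adjusted p = 0.00543).

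Of 35 interferon-induced effector genes tested, 18 rose and none fell with siMENA11a, and 14 rose and 1 fell with siMENA against control, with median log2 fold changes of 0.38 and 0.29. At an unadjusted p under 0.05 in limma 0 of them were lower with siMENA11a. With siMENA11a 7 were higher and 1 lower than with siMENA, where 14.4% of all genes were higher and 22.2% lower. IFI35, a partner of other interferon-induced proteins, rose with siMENA11a (36.9 ± 5.65 FPKM, 0.91, limma adjusted p = 0.000319) and with siMENA (35.5 ± 1.85 FPKM, 0.87, 0.000383) against control (19.0 ± 0.189 FPKM, SD, n = 3). ISG15 rose with siMENA11a (0.89, limma adjusted p = 0.00627), and IFIT1 and HERC5 rose with siMENA (1.00 and 1.14, 0.0092 and 0.0127). ISG15 also rose with siMENA (limma adjusted p = 0.0149, up to 0.0587) and IFIT1 with siMENA11a (0.0288, up to 0.0983). HERC5 did not pass with siMENA11a (limma adjusted p = 0.196), but passed with the replicate block (0.00356) and without replicate 2 of any group (0.0277). PARP9 and its partner DTX3L rose with siMENA11a (0.89 and 0.72, limma adjusted p = 6.91e-05 and 0.000153) and were higher with siMENA11a than with siMENA (0.69 and 0.53, 7.49e-05 and 0.000286), as were IFI6 (0.72, 0.000276) and GBP2 (0.68, 0.000769). GBP2 was the gene that fell with siMENA against control (limma adjusted p = 0.037, up to 0.126). IFI6 was lower there at an unadjusted p under 0.05 only (limma adjusted p = 0.094). With siMENA11a against control IFI6 (limma adjusted p = 0.00585) and GBP2 (0.0495, up to 0.15) rose. IFIT2 rose with siMENA11a (0.90, limma adjusted p = 0.0221, up to 0.0753), a call lost without control replicates 1 or 3. IFIT3 rose with siMENA (0.88, limma adjusted p = 0.0219, up to 0.0774), a call lost without siMENA replicates 1 or 2 or control replicates 1 or 3. IFIT2 also rose with siMENA (limma adjusted p = 0.0419, up to 0.132) and IFIT3 with siMENA11a (0.0287, up to 0.091). ISG15, IFIT1, IFIT2 and IFIT3 did not pass between the siRNAs (limma adjusted p = 0.507, 0.387, 0.69 and 0.853). Blocking on replicate number put ISG15 (limma adjusted p = 0.0478) and IFIT1 (0.0256) past the threshold there. It did the same for HERC5 between the siRNAs (0.000483, from 0.0696 in the main limma fit).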

How the data were processed

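Per the labels' protocols, 500 ng of total RNA of H1650 cells was rRNA-depleted (Ribo-Zero Gold) and sequenced in a stranded, paired design with reads of 75 bases (NextSeq 500). The authors deposited FPKM values for 16630 genes in 9 libraries. The build was hg19, per the submitters' processing notes (aligner, quantifier and annotation not given in the sources used here). In the series design the 3 libraries of a group are called biological replicates.

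In the deposited FPKM table, 11524 values (7.91%) in 4868 genes had lost their decimal point and were divided by 1000, of which those in genes with a decimal value stood at least 198-fold above the rest of their gene. In 237 genes no decimal value was left for comparison. Of the values of the 8 genes described, 5 were restored so: 2 of STAT2 and 1 each of IRF3, EIF2AK2 and TLR3. The fits leave out 1286 genes that lack a value in some library. FPKM sums ran from 553518 to 586775. No counts were recovered, so no count test was run, and relative depth is an estimate whose method was chosen after seeing the data.

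The 13273 genes whose mean reached 0.5 FPKM were compared as log2(FPKM + 1) with limma 3.58.1 in R 4.3.3, in 1 fit over 9 libraries with group as the only term and a mean-variance trend, with Benjamini-Hochberg adjustment across all genes (threshold 0.05). The procedure was tested on simulated data. Exact permutation tests are two-sided. The genes and lists were chosen with earlier results of these data known. All 9 genes and, from each list, up to 4 passing genes with the largest change per comparison are named; "up to" marks the highest adjusted p over the alternatives, where leaving out a library ended a call. Some of these genes are not reported here. ADAR, TBK1, TRAF3 and TICAM1 were added after their values were seen. Alternatives were other pseudocounts, filters and scalings, a replicate block, fits of 2 groups only, no mean-variance trend, values as deposited, restored genes left out, and each library left out. Motif and likeness searches are descriptions.

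The labels number the replicates 1 to 3 in every group. In the column headers the libraries run replicate by replicate, in the order control, siMENA and siMENA11a within each. Deviations from the group means correlated between same-numbered siMENA and control libraries at 0.124, 0.378 and 0.196, each over 0.1, which by the rule used counts as pairing. The rule was not met for siMENA11a with control (0.206, 0.425, -0.0302) or with siMENA (0.0863, 0.309, 0.0203). In all 3 comparisons the 2 libraries numbered replicate 2 had the highest correlation of any pair, so a failed rule does not show that siMENA11a was unpaired.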

Additional observations from a re-analysis of the deposited data

How the results depend on the processing

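In the limma fits on restored values, DDX58, IFIH1 and IRF9 kept their calls against control under every alternative that kept them in the fit, as did IRF9 and IRF3 between the siRNAs. So did EIF2AK2 with siMENA11a against control (highest limma adjusted p = 0.0193), but not with siMENA. Leaving out each library in turn gave 3 to 7 of the 8 genes called with siMENA against control, 4 to 5 with siMENA11a against control and 2 to 3 between the siRNAs, and 1346 to 2902, 1493 to 2483 and 3626 to 4814 genes in all, against 2463, 2583 and 4857. The 8 genes fell to 3 called without siMENA replicate 2, control replicate 1 or control replicate 2. Of all genes 1346, 1572, 1555 and 1446 were called with siMENA without siMENA replicates 1 and 2 and control replicates 1 and 3, each left out alone, and 1493 with siMENA11a without control replicate 3. Without replicate 2 of every group, chosen after seeing the data, 1614 and 1641 genes were called against control with siMENA and siMENA11a and 4073 between the siRNAs; fewer libraries enter these fits. Leaving out genes with a restored value left 8461 genes tested, among them 4 of the 8 genes. Called were 1362 genes with siMENA11a and 1293 with siMENA against control and 2716 between the siRNAs. Of the 4 genes still tested, 3, 3 and 1 were called in these comparisons. With values as deposited 556, 543 and 1703 genes were called in that order, and 1, 2 and 1 of the 8 genes, since lost decimal points inflate values. 9 named changes reversed there: TRIM25 to -2.84, TANK to 2.97 and AZI2 to 3.02 with siMENA, CYLD to 3.02 with siMENA11a, and TRIM25 to 3.00, AZI2 to -2.98, TYK2 to 6.13, PARP9 to -5.90 and IFI6 to -2.59 between the siRNAs. Over single genes on restored values 2580 alternative results kept their side of the threshold, 181 lost it and 44 gained it, and none reversed.

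With the replicate number as a block (the replicate block), 5 of the 8 genes were called between the siRNAs, DDX58 (limma adjusted p = 0.0474) and IFIH1 (0.0133) being added, 6 with siMENA11a against control (DHX58 0.02 and TLR3 0.00825 added) and 7 with siMENA against control. The block gave 3431, 3149 and 5648 genes with siMENA11a and siMENA against control and between the siRNAs. By the rule used, the numbers pair the samples in siMENA against control alone, though the replicate 2 libraries correlated most in every comparison.

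Absolute depth is unknown, so no counting interval or detection limit can be given for the low levels of DHX58, TLR3 and IFNB1.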
